A study of Mus musculus with 4 samples.

Results

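Mast cells are tissue-resident immune cells that store histamine, proteases and proteoglycans in granules and release them when IgE bound to its high-affinity receptor is cross-linked, or when basic secretagogues engage the receptor encoded by Mrgprb2. Connective tissue type mast cells of the mouse carry tryptases, chymases and carboxypeptidase in their granules, while mucosal mast cells of the gut express a different pair of chymases. Histamine is made from histidine by histidine decarboxylase, the product of Hdc, so the mast cells of mice without functional Hdc cannot make it.

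The genes described were 10 mast cell identity genes of the 22180 genes named on the arrays, and all 10 were measured, each by 1 probe set. They were chosen by name, with earlier results of these data known. Of them 4 were listed as genes shared by mast cells (Cpa3, Kit, Fcer1a and Ms4a2). The other 6 were listed as genes of the connective tissue type (Tpsb2, Tpsab1, Cma1, Mcpt4, Mcpt9 and Mrgprb2). The series measured total RNA of stomach tissue from FVB mice aged 1 year on 4 Affymetrix arrays, 2 from Hdc+/+ mice and 2 from Hdc-/- mice and 1 array per sample. The titles give biological replicate numbers without naming animals, so a p-value here reflects only the spread between samples. Values are on the log2 scale, and every difference is the Hdc-/- mean minus the Hdc+/+ mean, with the moderated standard error (SE) of limma and n = 2 per group. Precision is limited by having 4 arrays, and an exact two-sided permutation test of a single gene cannot give a p below 0.333.

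The samples differed in ways that bear on these genes. Hdc itself read 3.99 and 3.82 in the Hdc+/+ samples and 3.77 and 4.06 in the Hdc-/- samples, so it gave no check of the genotype labels, on which every direction below rests; the position of its probes relative to the disrupted part of the gene was not analysed here. The 11 stomach epithelium markers were present in every sample, with a mean value from 11.11 to 11.56. Among them 3 of 11 were more than 1 log2 unit higher in Hdc-/- sample 1 than in sample 2, against 1.39% of all genes. These were the mucin gene Muc6 (by 3.04), Gkn3 (by 2.70) and Tff2 (by 1.08). The other markers were lower in Hdc-/- sample 1, with sample 1 minus sample 2 from -0.68 (Muc5ac) to -0.02 (Atp4b). Over the 11 the median of sample 1 minus sample 2 was -0.11. The 10 hepatocyte markers had a mean value of 8.05 and 9.94 in Hdc+/+ samples 1 and 2 against 4.50 and 4.60 in Hdc-/- samples 1 and 2. The 8 pancreatic markers stood at 8.65 in Hdc+/+ sample 2 against 4.67 to 5.26 on the others. The 10 small intestine markers stood at 5.98 and 7.76 in the Hdc+/+ samples against 4.99 and 5.12 in the Hdc-/- samples. Of their differences 8 were below 0 and 2 above. The 11 squamous forestomach markers were all lower in the Hdc-/- samples (median difference -0.76, 7 at an unadjusted p under 0.05). The 8 adipocyte markers were all lower too (median -1.15, 5 at that p). Of the 10 fibroblast markers 4 reached that p with lower values, among them Lum (-1.23), Dpt (-0.95) and Dcn (-0.82), and 0 with higher values. The fibroblast differences were split, with 5 above 0, 5 below 0 and a median of -0.11. Of all genes, 4.87% reached that p with lower values. The part of these tissues in the mast cell values was not tested. In whole tissue, fewer mast cells and less RNA per mast cell cannot be told apart.

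None of the mast cell genes separated the genotypes in the test over all genes. Of the 10 genes 0 passed an adjusted p of 0.05 (limma, Benjamini-Hochberg over 22180 genes), against 0.00451% of all genes. At an unadjusted p under 0.05, 2 of the 10 stood out, Kit with higher and Mcpt9 with lower values in the Hdc-/- samples, against 8.55% of all genes. The genotypes did not overlap for 4 of the 10, with Kit and Tpsab1 higher and Mcpt4 and Mcpt9 lower, and 39.1% of all genes showed no overlap, 21.5% with higher and 17.6% with lower values. The median difference over the 10 genes was 0.35 on the log2 scale, against 0.02 over all genes. That median was -0.39 without Hdc-/- sample 1 and 1.09 without Hdc-/- sample 2, so its sign and size rested on which of those samples was kept. Members at an unadjusted p under 0.05 numbered 7 without Hdc-/- sample 2, namely Cpa3, Kit, Fcer1a, Ms4a2, Tpsb2 and Tpsab1 with higher and Mcpt9 with lower values, against 8.73% of all genes. They numbered 4 without Hdc-/- sample 1, where Cpa3, Cma1, Mcpt4 and Mcpt9 all had lower values, against 8.90% of all genes. Without Hdc+/+ sample 1 they numbered 2 (Kit and Mcpt9, against 6.74%) and without Hdc+/+ sample 2 they numbered 1 (Mcpt9, against 4.75%). With the dimmest 25% or 50% of genes left out, 1 of the 7 and 1 of the 6 members still tested reached this p (Kit in both), against 9.70% and 11.3% of all genes tested, and 1 of 10 (Mcpt9) did when every probe set was tested, against 7.44%. The genotypes did not overlap for 5 of the 10 without Hdc+/+ sample 1, against 67.5% of all genes, and for 5 without Hdc+/+ sample 2, against 65.1%. They did not overlap for 9 without Hdc-/- sample 1, against 73.4%, and for 9 without Hdc-/- sample 2, against 71.9%, where a group of 1 sample overlaps less often by construction.

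The widest spread lay within the Hdc-/- group. In Hdc-/- sample 1, 7 of the 10 genes were at their highest (Cpa3, Kit, Fcer1a, Ms4a2, Tpsb2, Tpsab1 and Cma1), against 27.2% of all genes. In Hdc-/- sample 2, 6 were at their lowest (Cpa3, Fcer1a, Ms4a2, Tpsb2, Cma1 and Mcpt4), against 24.2% of all genes. Hdc-/- sample 1 exceeded sample 2 by more than 1 log2 unit in 7 of the 10 genes, and 1.39% of all genes did so. In the opposite direction 0 of the 10 were more than 1 log2 unit apart, against 0.640% of all genes. The Hdc+/+ samples were within 1 unit of each other for all 10, where 2.39% of all genes were further apart. These differences compare single samples, so they have no replicate check and no test. The list was chosen with it known that mast cell genes followed Hdc-/- sample 1. The counts therefore describe the choice and are no separate evidence of that pattern.

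**Figure D1:**
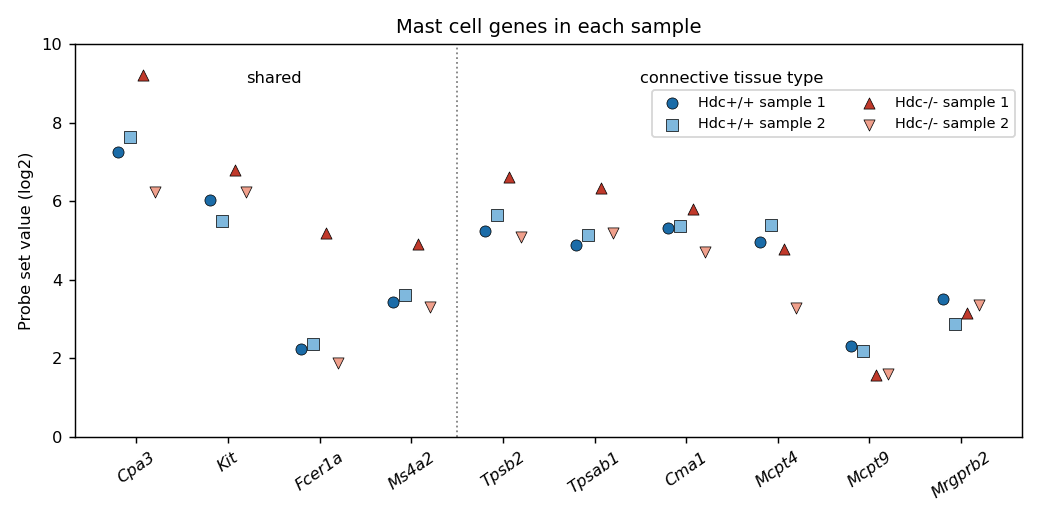
Deposited log2 value (vertical axis) of each of the 10 mast cell genes (horizontal axis), with 1 point for each of the 4 samples and a dotted line between shared and connective tissue type genes. Hdc-/- sample 1 is the highest point for 7 genes, and the Hdc+/+ points lie between the Hdc-/- points for Cpa3, Fcer1a, Ms4a2, Tpsb2 and Cma1.

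Among the shared genes, those of the granule carboxypeptidase and of the IgE receptor differed most between the Hdc-/- samples. Cpa3, which encodes the granule exopeptidase carboxypeptidase A3, read 7.25 and 7.62 in the Hdc+/+ samples and 9.21 and 6.24 in the Hdc-/- samples. The Hdc+/+ values lay between the Hdc-/- ones, which were 7.84-fold apart. The Cpa3 difference was 0.29 (SE 0.91, limma adjusted p = 0.969), with a 95% interval from -1.97 to 2.54.

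Fcer1a encodes the chain of the high-affinity receptor that binds IgE, and Ms4a2 the beta chain that amplifies its signal. Fcer1a read 2.24 and 2.36 in the Hdc+/+ samples and 5.19 and 1.88 in the Hdc-/- samples. In the 3 samples other than Hdc-/- sample 1 Fcer1a lay between the 4.45th and the 9.63rd percentile of gene values, where a signal cannot be told from background here, so no fold is given. Ms4a2 read 3.44 and 3.61 against 4.90 and 3.31, and lay between the 21.2nd and the 28.5th percentile in those same 3 samples. The genotype difference was 1.24 for Fcer1a (SE 1.00, limma adjusted p = 0.784) and 0.58 for Ms4a2 (SE 0.50, limma adjusted p = 0.807). Both chains were thus high on the same single sample, and their genotype groups overlapped.

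Kit encodes the receptor for stem cell factor, on which mast cells depend for growth and survival, and it is also expressed by interstitial cells of Cajal, the pacemaker cells of the gut wall. It read 6.04 and 5.50 in the Hdc+/+ samples and 6.79 and 6.23 in the Hdc-/- samples. All Hdc-/- values were above the Hdc+/+ ones, by a difference of 0.74 or 1.67-fold (SE 0.28, limma adjusted p = 0.560). Unlike Cpa3, Kit differed by only 0.55 between the Hdc-/- samples, close to the 0.54 between the Hdc+/+ samples. Of the 5 listed markers of interstitial cells of Cajal 4 were measured, with a mean value of 5.50 and 5.68 in the Hdc+/+ samples and 5.78 and 5.60 in the Hdc-/- samples. Among them Ano1, the gene of their calcium-activated chloride channel, differed by 0.29 (SE 0.29), Gpr20 by 0.36 (SE 0.16) and Edn3 by -0.40 (SE 0.28). Of the 4 markers 0 passed an unadjusted p of 0.05, against 8.55% of all genes. The part of these cells in the Kit signal was not tested.

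**Figure D2:**
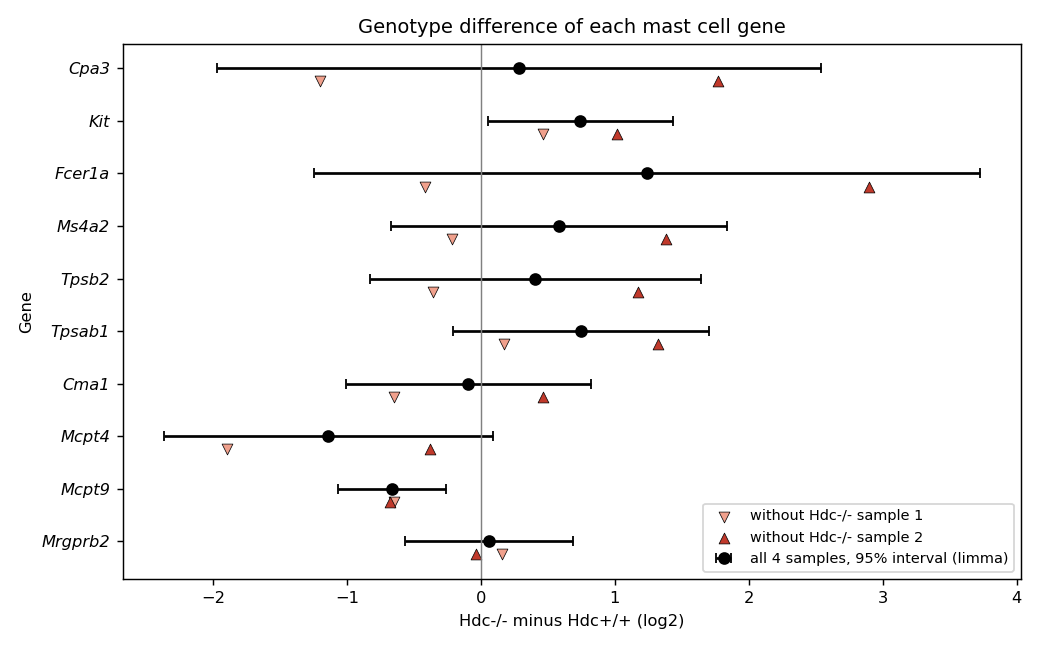
Difference of each mast cell gene between the genotypes (horizontal axis, log2, Hdc-/- minus Hdc+/+) with its 95% limma interval (black), and the difference without Hdc-/- sample 1 or sample 2 (triangles), by gene (vertical axis). The Kit and Mcpt9 intervals leave out 0 before adjustment, and Cpa3 runs from -1.20 without sample 1 to 1.77 without sample 2.

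The proteases of connective tissue type mast cells come from a tryptase cluster and a chymase cluster. In the order of genes in the RefSeq table of assembly GRCm38.p6, Tpsb2 lies beside Tpsg1. The chymase cluster includes Cma1, Cma2, Mcpt1, Mcpt2, Mcpt9, Mcpt4, Mcpt8 and Ctsg, named here without regard to order. By the positions of their starts, Cma1, Mcpt1, Mcpt9 and Mcpt4 follow in that order on chromosome 14. The 250 bases before the transcription start are shown for Mcpt4 and its close relative Mcpt1, whose sequences are alike while their values were not, and for Cpa3 and Cma1 as genes of the same granules. The sequences are RefSeq's for GRCm38.p6, read 5′ to 3′ on the gene's strand. Capitals mark matches on either strand to a site of 6 letters, GATA with A or T before it and A or G after it, which GATA transcription factors such as the mast cell regulator Gata2 recognise. No match overlapped another.
Mcpt4 (chr14:56062311-56062560, minus strand): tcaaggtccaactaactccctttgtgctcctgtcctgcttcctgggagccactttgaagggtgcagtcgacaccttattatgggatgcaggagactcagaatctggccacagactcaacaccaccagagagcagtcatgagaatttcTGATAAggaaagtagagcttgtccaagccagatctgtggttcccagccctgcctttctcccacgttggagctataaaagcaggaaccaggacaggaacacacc
Mcpt1 (chr14:56017714-56017963, plus strand): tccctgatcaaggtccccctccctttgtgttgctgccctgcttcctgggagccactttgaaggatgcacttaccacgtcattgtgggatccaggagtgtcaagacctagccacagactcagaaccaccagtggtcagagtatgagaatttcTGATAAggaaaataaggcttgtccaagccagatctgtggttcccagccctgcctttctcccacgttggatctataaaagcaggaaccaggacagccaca
Cpa3 (chr3:20242182-20242431, minus strand): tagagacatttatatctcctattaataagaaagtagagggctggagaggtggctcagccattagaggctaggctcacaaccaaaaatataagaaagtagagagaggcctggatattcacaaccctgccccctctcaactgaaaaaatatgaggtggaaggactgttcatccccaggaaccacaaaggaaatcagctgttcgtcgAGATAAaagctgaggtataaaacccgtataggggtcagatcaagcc
Cma1 (chr14:55944676-55944925, minus strand): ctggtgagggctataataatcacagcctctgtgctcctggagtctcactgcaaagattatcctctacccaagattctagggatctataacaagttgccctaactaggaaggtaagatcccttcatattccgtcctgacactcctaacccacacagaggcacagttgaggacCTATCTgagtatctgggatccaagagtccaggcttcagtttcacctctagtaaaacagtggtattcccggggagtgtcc

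The promoters of Mcpt4 and Mcpt1 were 81.9% identical in a global alignment, and among the 32851 promoter windows searched 0 others aligned to the Mcpt4 window with a higher score. They share a run of 53 identical bases that begins 87 bases before the Mcpt4 start and 83 before the Mcpt1 start, and each holds a TGATAA match, 103 and 99 bases before the start. The identity with Mcpt4 was 54.1% for Cma1, 49.7% for Mcpt9 and 49.0% for Cpa3. Of the 10 mast cell genes 8 had a promoter window in the table, and 6 of those 8 held a match (Fcer1a, Cpa3, Mrgprb2, Cma1, Mcpt4 and Ms4a2), against 26.5% of all windows of this length. In Ms4a2 there were 3 matches, and the windows of Kit and Mcpt9 held 0. The letters TATAAA on the gene's strand occurred in the last 50 bases before the start in Cpa3 and Mcpt4, 2 of the 8, and in Mcpt1, against 2.63% of all windows. A match of letters describes the sequence and not a bound site.

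Of the tryptases, Tpsb2 followed the pattern of Cpa3 with a smaller amplitude. Tpsab1 shared with Cpa3 its highest value in Hdc-/- sample 1 and not its lowest in Hdc-/- sample 2. Tpsb2, which encodes the main tryptase of connective tissue type mast cells, read 5.23 and 5.63 in the Hdc+/+ samples and 6.60 and 5.07 in the Hdc-/- samples, a difference of 0.41 (SE 0.50, limma adjusted p = 0.873). Its Hdc-/- values enclosed the Hdc+/+ ones and were 2.88-fold apart. Tpsab1, the gene of a second tryptase, read 4.87 and 5.13 against 6.32 and 5.17, a difference of 0.75 (SE 0.38, limma adjusted p = 0.646). Its groups did not overlap, but Hdc-/- sample 2 exceeded the nearer Hdc+/+ sample by little, and without Hdc-/- sample 1 the difference was 0.17. The tryptases are closely similar in sequence, so their signals may not be assigned to 1 gene with certainty. Of the 9 other proteases listed for the tryptase cluster, Tpsg1 alone had an unadjusted p under 0.05, against 8.55% of all genes. Its difference was 0.54 (SE 0.17, limma adjusted p = 0.482), and the median of the 9 was -0.03.

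The differences of the chymase members Cma1 and Mcpt4 were below 0 and did not pass the test. Cma1, which encodes the alpha-chymase, read 5.31 and 5.38 in the Hdc+/+ samples and 5.81 and 4.69 in the Hdc-/- samples, a difference of -0.09 (SE 0.37, limma adjusted p = 0.974). It was again enclosed by the Hdc-/- values, 0.47 higher without Hdc-/- sample 2 and at -0.65 without sample 1. Mcpt4, the gene of the main chymotrypsin-like chymase of connective tissue type mast cells, read 4.95 and 5.39 in the Hdc+/+ samples and 4.79 and 3.28 in the Hdc-/- samples. Both Hdc-/- values were below both Hdc+/+ values, with a difference of -1.14 (SE 0.49, limma adjusted p = 0.602). In Hdc-/- sample 2 Mcpt4 lay at the 20.7th percentile of gene values, within the range of the dim gene Mrgprb2, so that value and the ratios that use it may hold background signal. The difference was -0.38 without Hdc-/- sample 2 and -1.89 without sample 1, so its sign held and its size did not.

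Set against the other granule proteases in the same sample, Mcpt4 was lower in each Hdc-/- sample. This ratio was chosen after its values were seen. The log2 value of Mcpt4 minus that of Tpsb2 was -0.28 and -0.24 in the Hdc+/+ samples and -1.81 and -1.80 in the Hdc-/- samples, so the Hdc-/- samples, between which Mcpt4 differed by 1.51 and Tpsb2 by 1.53, gave nearly the same ratio. Relative to Tpsb2, 7.12% of all genes were lower without overlap. The mean was -0.26 ± 0.03 against -1.80 ± 0.01 (SD, n = 2 per group), with an exact two-sided permutation p of 0.333, the smallest this design allows. Against Tpsab1 the values were 0.08 and 0.26 in the Hdc+/+ samples and -1.54 and -1.90 in the Hdc-/- samples, where 46.9% of all genes were lower without overlap. Against Cma1 they were -0.36 and 0.02 against -1.02 and -1.41, where 3.09% of all genes were lower without overlap. Against Cpa3 they were -2.30 and -2.23 against -4.42 and -2.96, where 0.915% were. The exact permutation p was 0.333 for each of these partners. For Tpsab1 the separation was fixed beforehand, since Mcpt4 alone was lower and Tpsab1 alone higher without overlap. A ratio within a sample shows unequal change and does not say which gene changed.

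**Figure D3:**
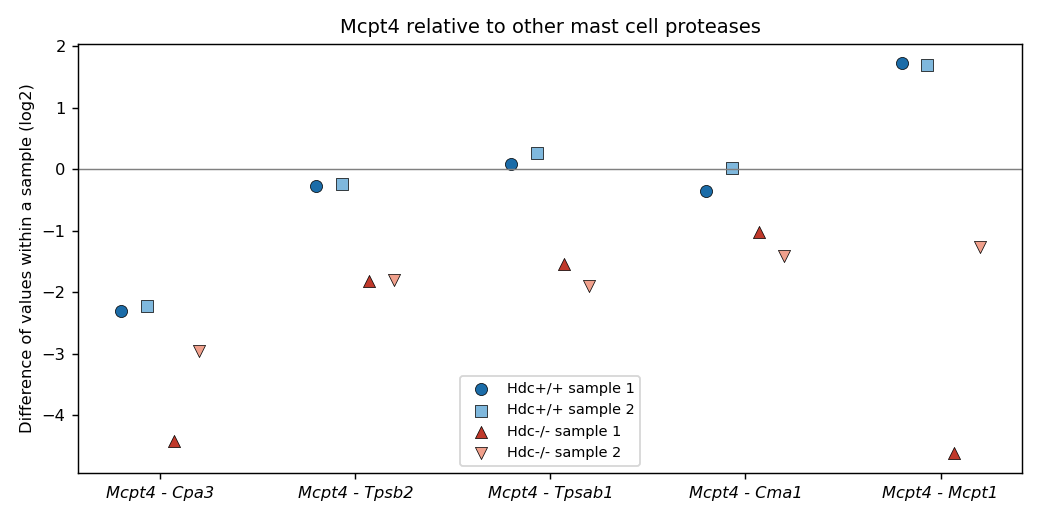
Log2 value of Mcpt4 minus that of 5 other mast cell proteases in the same sample (vertical axis) for each partner (horizontal axis), with 1 point per sample. For every partner the Hdc+/+ points lie above the Hdc-/- points. For Tpsab1 and Mcpt1 this had to be so, since Mcpt4 alone is lower and each of them alone higher without overlap. For Tpsb2 the points of a genotype nearly coincide, at -0.28 and -0.24 against -1.81 and -1.80.

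The mucosal chymases, measured beside these genes, had higher values in both Hdc-/- samples, the opposite direction to Mcpt4. Mcpt1 read 3.23 and 3.70 in the Hdc+/+ samples and 9.41 and 4.54 in the Hdc-/- samples, and Mcpt2 read 4.44 and 5.19 against 8.37 and 5.21. For Mcpt2 the second Hdc-/- value exceeded the nearer Hdc+/+ value by little, so its direction rested on Hdc-/- sample 1. Both were highest in Hdc-/- sample 1, with genotype differences of 3.50 (SE 1.47, limma adjusted p = 0.594) and 1.98 (SE 0.98, limma adjusted p = 0.640) that did not pass. Mcpt4 minus Mcpt1 within a sample was 1.72 and 1.69 in the Hdc+/+ samples and -4.62 and -1.26 in the Hdc-/- samples (exact two-sided permutation p = 0.333). Relative to Mcpt1, 97.9% of all genes were lower without overlap. Mcpt4 alone was lower and Mcpt1 alone higher without overlap, so the separation of this ratio was fixed beforehand. In Hdc+/+ sample 1 Mcpt1 lay at the 19.5th percentile of gene values. That value, the Mcpt1 difference and the ratio that uses it may therefore hold background signal.

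The remaining connective tissue type genes gave weak signals. Mcpt9, a further protease gene of the chymase cluster, read 2.32 and 2.18 in the Hdc+/+ samples and 1.57 and 1.60 in the Hdc-/- samples, a difference of -0.66 (SE 0.16, limma adjusted p = 0.396). Its groups did not overlap and the difference ran from -0.73 to -0.60 with each sample left out in turn, but it lay between the 2.51st and 8.08th percentile of gene values in all samples, so no level above background was shown. Mrgprb2, the receptor gene for basic secretagogues, read 3.52 and 2.88 against 3.16 and 3.35, a difference of 0.06 (SE 0.25, limma adjusted p = 0.976) with overlapping groups and a 95% interval from -0.57 to 0.68. It stayed between the 16.0th and 24.9th percentile, and Mcpt9 and Mrgprb2 were the 2 members within the dimmest 25% of genes in every sample.

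**Figure D4:**
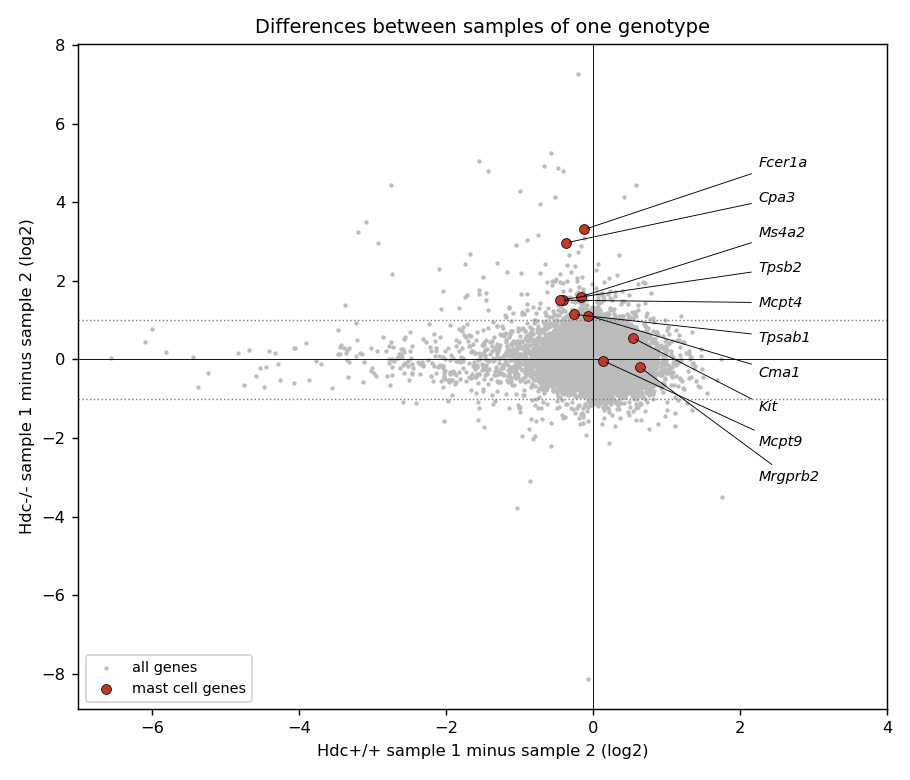
Difference between the samples of a genotype for all 22180 genes (grey) and the 10 mast cell genes (red), with Hdc+/+ sample 1 minus 2 on the horizontal and Hdc-/- sample 1 minus 2 on the vertical axis, both log2, and dotted lines at 1 and -1. Fcer1a (3.31), Cpa3 (2.97), Ms4a2 (1.60), Tpsb2 (1.53), Mcpt4 (1.51), Tpsab1 (1.15) and Cma1 (1.12) lie above the upper line, while their Hdc+/+ differences stay between -0.44 and -0.07.

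Of the genes listed for the wider mast cell pathways, 0 passed over all genes by limma. In the IgE receptor signalling list, 13 of 14 genes were measured, with a median difference of 0.24. An unadjusted p under 0.05 was reached by 2 in the higher direction and 0 in the lower, the receptor gamma chain gene Fcer1g, with a difference of 0.49 (SE 0.18, limma adjusted p = 0.544), and the phospholipase gene Plcg2, with 0.41 (SE 0.16, limma adjusted p = 0.579). Fcer1g, which other myeloid cells also express, read 6.09 and 6.10 in the Hdc+/+ samples and 6.44 and 6.72 in the Hdc-/- samples, so it was not highest in Hdc-/- sample 1 as the alpha and beta chain genes were. The kinase gene Btk differed by 0.79 (SE 0.33) and the adaptor gene Grap2 by 0.44 (SE 0.20), and neither passed an unadjusted p of 0.05. The 9 macrophage markers had a mean value of 5.47 and 5.76 against 5.78 and 5.74. Their differences were split, with 4 above 0, 5 below 0 and a median of -0.002. Of the 9, 3 reached an unadjusted p under 0.05 with higher values and no overlap, as Fcer1g did, and 0 with lower values. These were Lyz2 (0.86, SE 0.25), Cd68 (0.66, SE 0.21) and Adgre1 (0.66, SE 0.16). Of all genes, 3.68% reached that p with higher values. The part of macrophages in these genes was not tested.

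In the lineage and growth factor list, 11 of 12 genes were measured, with a median difference of 0.24. Of these differences 7 were above 0 and 4 below, among the latter Stat5a (-0.15) and Tal1 (-0.03). Kitl and Spi1, 2 of the 11, reached an unadjusted p under 0.05 in the higher direction and 0 did so in the lower direction. Of all genes, 3.68% reached it with higher and 4.87% with lower values. Kitl, which encodes stem cell factor, the ligand of Kit, read 6.26 and 6.67 in the Hdc+/+ samples and 7.64 and 6.85 in the Hdc-/- samples, a difference of 0.78 (SE 0.31, limma adjusted p = 0.581). Like its receptor, Kitl was highest in Hdc-/- sample 1 and its groups did not overlap. Of all genes, 27.2% were highest in that sample and 21.5% were higher without overlap. The transcription factor gene Spi1 differed by 0.43 (SE 0.16, limma adjusted p = 0.560) and the cytokine receptor gene Csf2rb by 0.47 (SE 0.25). Gata2 and Mitf, regulators of mast cell identity that were picked here after their values were seen, differed by 0.24 (SE 0.19) and 0.29 (SE 0.16).

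The granule and amine list of 9 genes had a median difference of 0.15. Of all genes, 3.68% reached an unadjusted p under 0.05 in the higher direction and 4.87% in the lower. In this list 1 gene did so in the higher direction and 0 in the lower. That gene was Slc18a2, whose product loads histamine and other amines into granules of mast cells and endocrine cells, with values of 5.15 and 4.77 against 6.38 and 6.38. Its values were the same in the Hdc-/- samples to within 0.01, so it did not follow Cpa3 or the IgE receptor chains across those samples (difference 1.42, SE 0.19, limma adjusted p = 0.247). Srgn, the gene of the proteoglycan core serglycin that binds granule proteases, read 6.23 and 6.70 against 7.71 and 6.58 and was thus highest in Hdc-/- sample 1 (difference 0.68, SE 0.40), and the secretory GTPase gene Rab27b differed by -0.34 (SE 0.16).

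In the eicosanoid list, 6 of 7 genes were measured, all 6 differences were above 0 with a median of 0.31, and an unadjusted p under 0.05 was reached by 1 in the higher direction and 0 in the lower. Pla2g4a, which encodes the phospholipase that releases arachidonic acid, read 6.46 and 6.37 in the Hdc+/+ samples and 8.74 and 7.08 in the Hdc-/- samples, a difference of 1.49 (SE 0.52, limma adjusted p = 0.531). Alox5ap and Alox5, which begin leukotriene synthesis, differed by 0.54 (SE 0.30) and 0.47 (SE 0.22). Of all genes, 3.68% reached this p in the higher direction and 4.87% in the lower.

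Basophils also express the IgE receptor chains. The 4 basophil markers had a mean value of 3.30 and 2.98 in the Hdc+/+ samples and 3.42 and 3.38 in the Hdc-/- samples, and they lay between the 9.05th and 33.7th percentile of gene values. The basophil protease gene Mcpt8 read 3.47 and 3.48 against 3.72 and 3.64, and the cytokine gene Il4 differed by 0.39 (SE 0.26). Of the 8 eosinophil markers 6 were measured, with a mean value of 3.49 and 3.34 against 3.82 and 3.61, and Siglecf differed by 0.60 (SE 0.26). Among the 10 smooth muscle markers the mean value was 7.79 and 7.98 against 7.62 and 7.57, and among the 10 fibroblast markers 7.22 and 7.35 against 7.08 and 6.88. Hdc-/- sample 1 exceeded sample 2 by more than 1 log2 unit in 1.39% of all genes. It did so in 0 of the basophil, eosinophil, smooth muscle and macrophage markers, 1 fibroblast marker and 1 small intestine marker. It did so in 3 of the 11 stomach epithelium markers named above and 3 of 11 genes listed for the chymase cluster (Mcpt1, Mcpt2 and the granzyme gene Gzmb). The same held for 2 of the 9 granule and amine genes (Tph1 by 1.335 and Srgn by 1.13). It also held for 1 of the 6 eicosanoid genes measured (Pla2g4a by 1.66), and for 0 of the IgE receptor signalling and lineage genes. The part of the cell types above in the mast cell values was not tested.

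**Figure D5:**
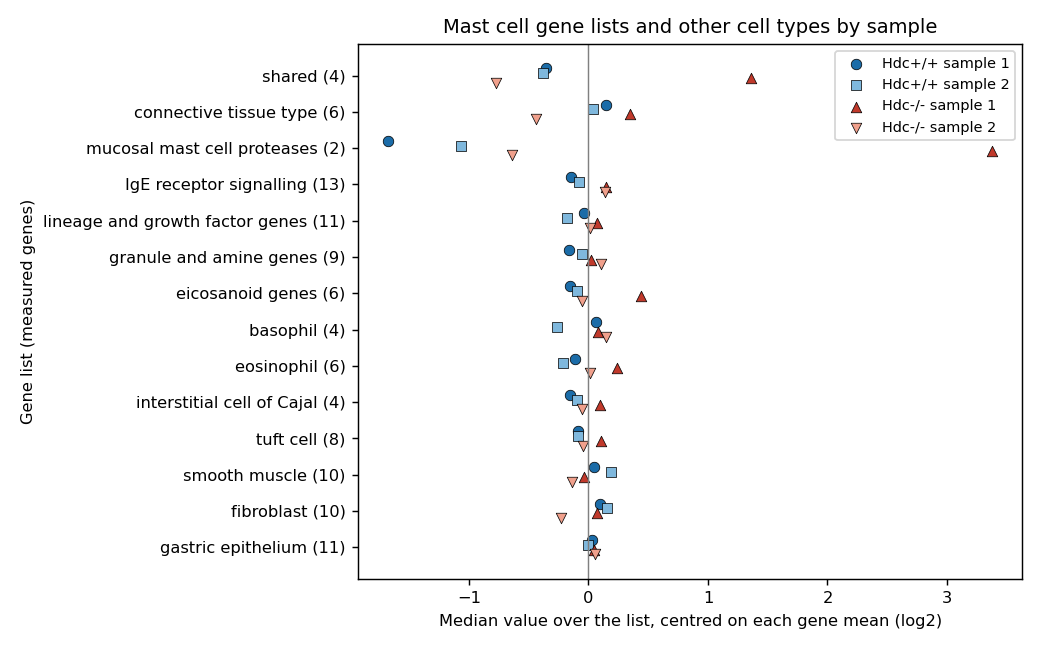
Median over each gene list (vertical axis, with the number of measured genes) of log2 values centred on the mean of each gene over the 4 samples (horizontal axis), with 1 point per sample. The shared mast cell genes stand at 1.36 in Hdc-/- sample 1 and -0.77 in sample 2, and the basophil markers at 0.08 and 0.15.

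Averaged over the 10 mast cell genes, values centred on each gene's mean were -0.14 and -0.08 in the Hdc+/+ samples and 0.78 and -0.57 in the Hdc-/- samples. The genes outside the list closest to this pattern, by the root mean square distance over the 4 samples, were Me1, Galnt6, Diras2, Ccdc25, Osmr, Nuf2, Vmn2r117, Cd9, Tm4sf1 and Pik3r3, at distances from 0.04 to 0.09 log2 units. Me1, which encodes malic enzyme, read 10.20 and 10.22 in the Hdc+/+ samples and 11.02 and 9.68 in the Hdc-/- samples. With 4 samples, likeness of pattern is a description of these samples alone.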

How the data were processed

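The authors deposited log2 values per probe set, made comparable between arrays by RMA; the submitters' processing notes list RMA, oligo and Affymetrix Power Tools, with no versions or roles. Stomach was washed and minced before Trizol extraction, and biotin-labelled cDNA was made from 5.5 ug of RNA, per the labels' protocols. The build behind the array annotation was not used here.

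Of 41345 probe sets, the 23521 with 1 gene symbol were kept, and the probe set with the highest mean stood for a gene, which left 22180 genes. No dim gene was left out. Genotypes were compared with limma 3.58.1 (R 4.3.3; lmFit and eBayes without covariates), with p-values adjusted by Benjamini-Hochberg over the 22180 genes and a threshold of 0.05. The fit was checked on simulated data. All 10 members were named; of each list, up to 3 genes with the largest difference, plus Hdc, Kitl, Mcpt1, Mcpt2 and Slc18a2. Any further list gene named was picked with its values in view. The members and lists were chosen with earlier results of these data known, including that mast cell genes followed Hdc-/- sample 1. Promoters were aligned globally with Biopython. Alternatives changed the dim filter, probe set rule, normalization, prior, replicate block, arrays and features tested.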

Additional observations from a re-analysis of the deposited data

How the results depend on the processing

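Under every alternative run, limma called 0 of the 10 mast cell genes over all genes. The median difference of the 10 genes ran from -0.39 (without Hdc-/- sample 1) to 1.09 (without Hdc-/- sample 2) with 1 sample left out, and kept its sign and stayed near 0.35 under the other settings. Leaving out Hdc-/- sample 1 turned the differences of Cpa3 (-1.20), Fcer1a (-0.42), Ms4a2 (-0.22) and Tpsb2 (-0.36) negative, leaving out sample 2 turned those of Cma1 (0.47) and Mrgprb2 (-0.04), and leaving out Hdc+/+ sample 2 turned that of Mrgprb2 (-0.26). With each sample left out in turn, these differences ran from -1.20 to 1.77 (Cpa3), -0.42 to 2.89 (Fcer1a), -0.22 to 1.38 (Ms4a2), -0.36 to 1.17 (Tpsb2), -0.65 to 0.47 (Cma1) and -0.26 to 0.38 (Mrgprb2). Members at an unadjusted p under 0.05 numbered 1 to 7 with a sample left out (7 without Hdc-/- sample 2, against 8.73% of all genes, and 4 without sample 1, against 8.90%), 1 with the dimmest 25% or 50% of genes left out, where 7 and 6 members were tested, and 1 when every probe set was tested, against 7.44% to 11.3% of all features tested in these settings. Members without overlap numbered 5 to 9 with a sample left out, against 65.1% to 73.4% of all genes, each such fit having fewer samples and a lone sample in 1 group that was taken to vary like the other group.

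Over all genes limma called 1 gene, against 5 after quantile normalization again, 5 with a trended and robust prior, 7 with the replicate block, 0 with every probe set tested, and 0 to 161 with a sample left out. The deviations of same-numbered samples correlated at -0.119 over genes, which gave no sign that the replicate numbers pair the samples. A single correlation over 2 samples per genotype cannot exclude such pairing. With the numbers crossed as a block, added after seeing the data, 0 genes were called. Neither block called a mast cell gene. The cause of the other changes was not tested. Background signal per probe set was not used here. That limits what can be said of Fcer1a, Ms4a2, Mcpt9 and Mrgprb2, of Mcpt4 in Hdc-/- sample 2 and of Mcpt1 in Hdc+/+ sample 1.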
